A study of Mus musculus with 18 samples.

Results

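The HSP70 and HSP110 chaperones examined here were 8 genes, taken by symbol from the 24318 genes of the deposited table: Hspa1a, Hspa1b, Hspa2, Hspa9 and Hspa13 of the HSP70 family, and Hspa4, Hspa4l and Hsph1, which code for HSP110 proteins. All 8 passed the expression filter, which kept 13258 genes for testing. Hspa8, the constitutive cytosolic HSP70, was left out because Cuffdiff had not processed it in 9 of the 18 libraries. Hspa1a and Hspa1b are nearly the same in sequence, which makes the division of fragments between them uncertain.

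Polyadenylated RNA was sequenced from immortalized mouse embryonic fibroblasts (MEFs) of the genotype MafF-/-::MafG-/-::MafK-/-, a deletion of all 3 small Maf genes that both lines carried. Mock cells were compared with cells of the same background that express T-N1G, a heterodimer of the transcription factor Nrf1 (gene Nfe2l1) tethered to MafG. Each line was treated for 12 h with vehicle, 0.3 µM or 1.0 µM MG132, a peptide aldehyde that inhibits the proteasome, giving 6 groups of 3 libraries. The promoter that drives T-N1G, and whether the cells are 1 clone, are not stated in the labels. Nor do they state whether replicate libraries were grown as separate cultures. The p-values therefore rest on library-to-library spread that could be technical.

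HSP70 proteins bind exposed hydrophobic stretches of unfolded clients and release them in a cycle driven by ATP. J-domain proteins deliver the client and trigger ATP hydrolysis, and nucleotide exchange factors, among them the HSP110 proteins, open the chaperone for the next round. Unfolded proteins draw HSP70 away from heat shock factor 1 (HSF1), which then trimerizes and binds inverted repeats of the unit GAA in the promoters of chaperone genes, and proteasome inhibition is a classical trigger of this response in cultured fibroblasts.

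Promoter sequences were available for 6 of the 8 genes in the RefSeq table of build GRCm38.p6. The 250 bases before the start site are shown for the pair with the steepest rise (Hspa1a at chr17:34972157-34972406 and Hspa1b at chr17:34959239-34959488, both minus strand), for the HSP110 gene with the steepest rise (Hsph1, chr5:149636337-149636586, minus strand) and for the next HSP110 gene (Hspa4l, chr3:40745363-40745612, plus strand). Each runs 5′ to 3′ towards the start site, with any pair of inverted heat shock units (GAANNTTC or TTCNNGAA, both strands) in capitals.
Hspa1a: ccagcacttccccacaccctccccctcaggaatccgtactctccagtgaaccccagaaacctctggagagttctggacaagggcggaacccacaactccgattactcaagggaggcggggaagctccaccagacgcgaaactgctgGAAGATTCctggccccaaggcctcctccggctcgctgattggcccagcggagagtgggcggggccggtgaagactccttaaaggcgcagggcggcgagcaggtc
Hspa1b: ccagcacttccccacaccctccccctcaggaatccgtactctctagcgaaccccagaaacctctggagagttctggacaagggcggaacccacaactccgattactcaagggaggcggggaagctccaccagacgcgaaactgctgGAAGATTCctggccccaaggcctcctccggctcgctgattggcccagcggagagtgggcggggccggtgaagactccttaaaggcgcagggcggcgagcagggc
Hsph1: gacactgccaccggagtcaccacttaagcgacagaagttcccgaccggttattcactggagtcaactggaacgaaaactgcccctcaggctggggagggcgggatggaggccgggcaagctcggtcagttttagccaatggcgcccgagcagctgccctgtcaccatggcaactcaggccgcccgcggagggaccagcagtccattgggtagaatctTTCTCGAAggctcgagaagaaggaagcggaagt
Hspa4l: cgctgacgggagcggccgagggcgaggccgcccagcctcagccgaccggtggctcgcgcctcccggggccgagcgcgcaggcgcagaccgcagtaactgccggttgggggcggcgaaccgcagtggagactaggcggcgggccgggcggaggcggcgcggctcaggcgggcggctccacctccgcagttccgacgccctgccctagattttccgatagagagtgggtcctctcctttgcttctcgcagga
Hspa1a and Hspa1b were identical at 247 of these 250 bases (98.8%), and the 3 substitutions were C44T, T47C and T249G, with the Hspa1a base first and positions counted from 1 at the 5′ end. Both held GAAGATTC at bases -104 to -97 from the start site. Hsph1 held TTCTCGAA at -33 to -26, and its window went on after the start site with TTCTGGAA at 37 to 44, which overlaps GAAAGTTC at 42 to 49. Together these last 2 make a 3-unit form, in which TTCNNGAA is extended by NNTTC or GAANNTTC by NNGAA. RefSeq lists a second start site for Hsph1, from which the same letters lie at -54 to -47, 16 to 23 and 21 to 28. No pair of units lay in the windows of Hspa4l, Hspa2 or Hspa4, from 250 bases before to 50 after the start. Of 32851 promoters of that length, 15.1% held a pair of units and 0.603% a 3-unit form (either orientation). The core letters of the antioxidant response element to which Nrf1 and small Maf heterodimers bind, TGACNNNGC on either strand, occurred only in the Hsph1 window among these 6 genes, at -132 to -124 and -96 to -88, and in 12.4% of all promoters. From the second Hsph1 start site the same matches lie at -153 to -145 and -117 to -109. A match is a description of the letters, not of a bound site.

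Depth was 18164382 to 21196909 fragments per library over the genes used. Spread was widest at 1.0 µM, where the median SD over genes of log2 CPM (counts scaled to the library's TMM-adjusted total) reached 0.143 for the mock libraries and 0.177 for T-N1G against 0.0485 to 0.0748 in the other 4 groups. Mafg stood at 6 to 25 fragments in mock and 3079 to 69014 in T-N1G libraries, and in T-N1G cells it went from 158.8 ± 15.6 CPM under vehicle to 3290 ± 829 at 1.0 µM (SD, n = 3), so the dose of MG132 and the Mafg level moved together in that line. Mock libraries still held 68 to 811 fragments of Maff and 26 to 152 of Mafk, and which part of each gene was deleted is not stated, so these counts check nothing. The 10 fibroblast markers summed to 8372 to 13163 CPM in every library. Leukocyte, epithelial, and muscle or fat markers summed to at most 13.7 CPM, and the 5 endothelial markers to 5.06 to 9.36 CPM in 3 groups, 18.6 to 26.0 in mock at 0.3 µM, 64.5 to 87.4 in mock at 1.0 µM and 25.5 to 40.9 in T-N1G at 1.0 µM. Their part in the results was not tested.

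**Figure D1:**
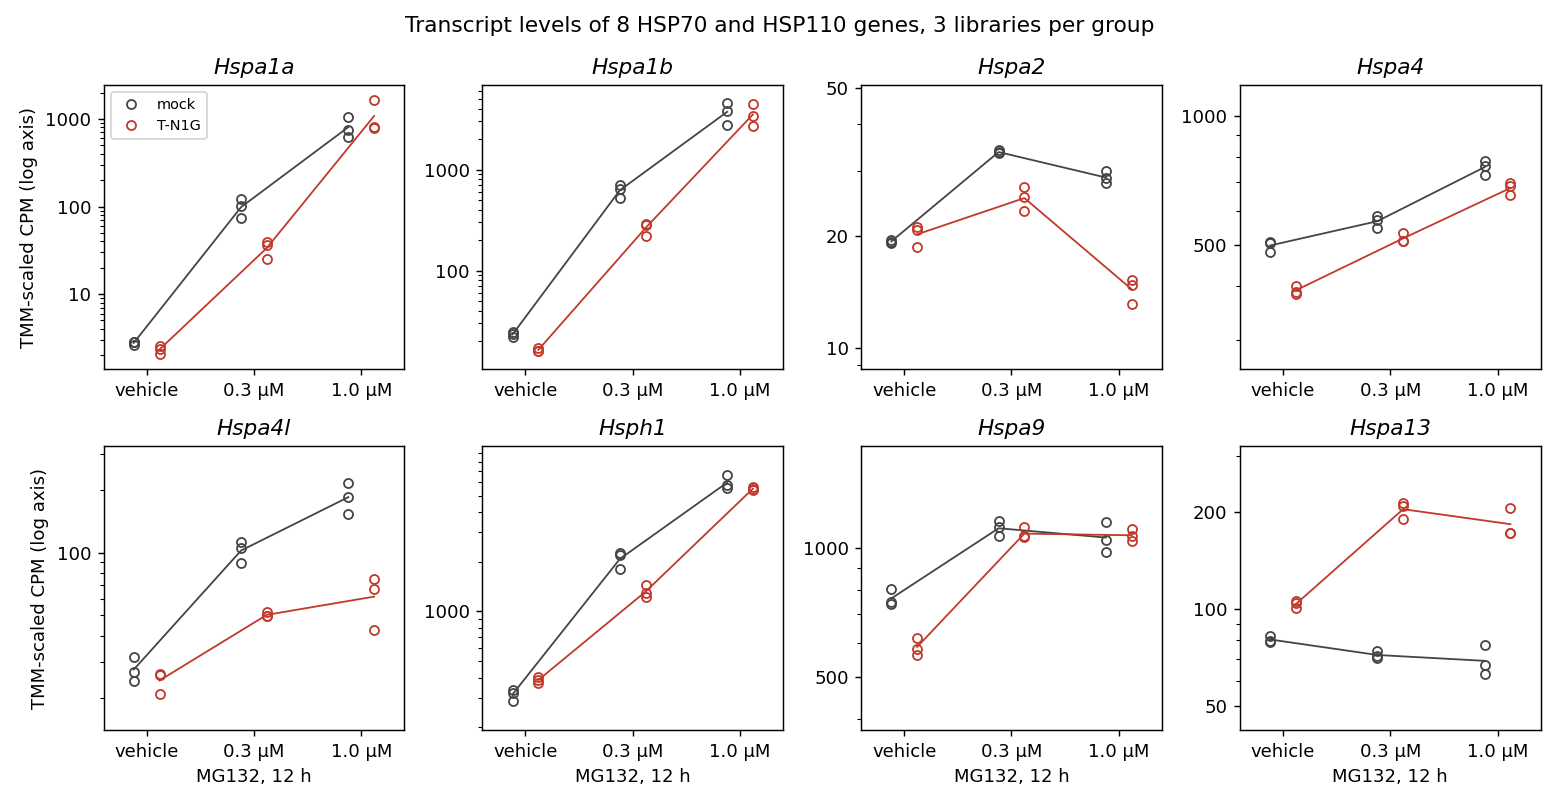
TMM-scaled CPM of the 8 genes (log axis) by MG132 dose, 1 circle per library, with lines through the group means of mock (grey) and T-N1G (red) cells. Hspa1a, Hspa1b and Hsph1 climb in both lines, Hspa4l stays lower in T-N1G cells at both doses, Hspa2 falls below its vehicle level at 1.0 µM in T-N1G cells, and Hspa13 lies above its mock level in every T-N1G library.

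Most of these chaperone transcripts rose under MG132 in mock cells, by amounts that ran from 1.14-fold to 290-fold. At 0.3 µM, 7 of the 8 genes rose and Hspa13 did not pass the test, against 25.0% of all tested genes called higher and 28.1% called lower (edgeR, adjusted p under 0.05). At 1.0 µM, 7 rose and Hspa13 was called lower, against 32.4% and 37.4% of all genes. The median log2 change of the 8 genes was 1.35 at 0.3 µM and 1.68 at 1.0 µM, beside -0.02 and -0.04 over all tested genes. With scaling by library size alone the split at 0.3 µM became 6 higher and 1 lower, and with DESeq2 size factors that at 1.0 µM became 7 and 0.

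In T-N1G cells all 8 genes rose at 0.3 µM, against 29.1% of all tested genes called higher and 30.3% called lower, and at 1.0 µM 7 rose and Hspa2 fell, against 37.5% higher and 38.9% lower. Their median log2 change was 1.01 at 0.3 µM and 1.10 at 1.0 µM, beside -0.01 over all tested genes at each dose. Scaling by library size alone moved the median of all genes at 1.0 µM by -0.143 on the log2 scale in this line, and the calls of the 8 genes at 1.0 µM were the same 7 and 1 in number. Because a library measures shares of RNA from many cells, a change in the number of cells that express a gene cannot be told apart from a change of RNA per cell.

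**Figure D2:**
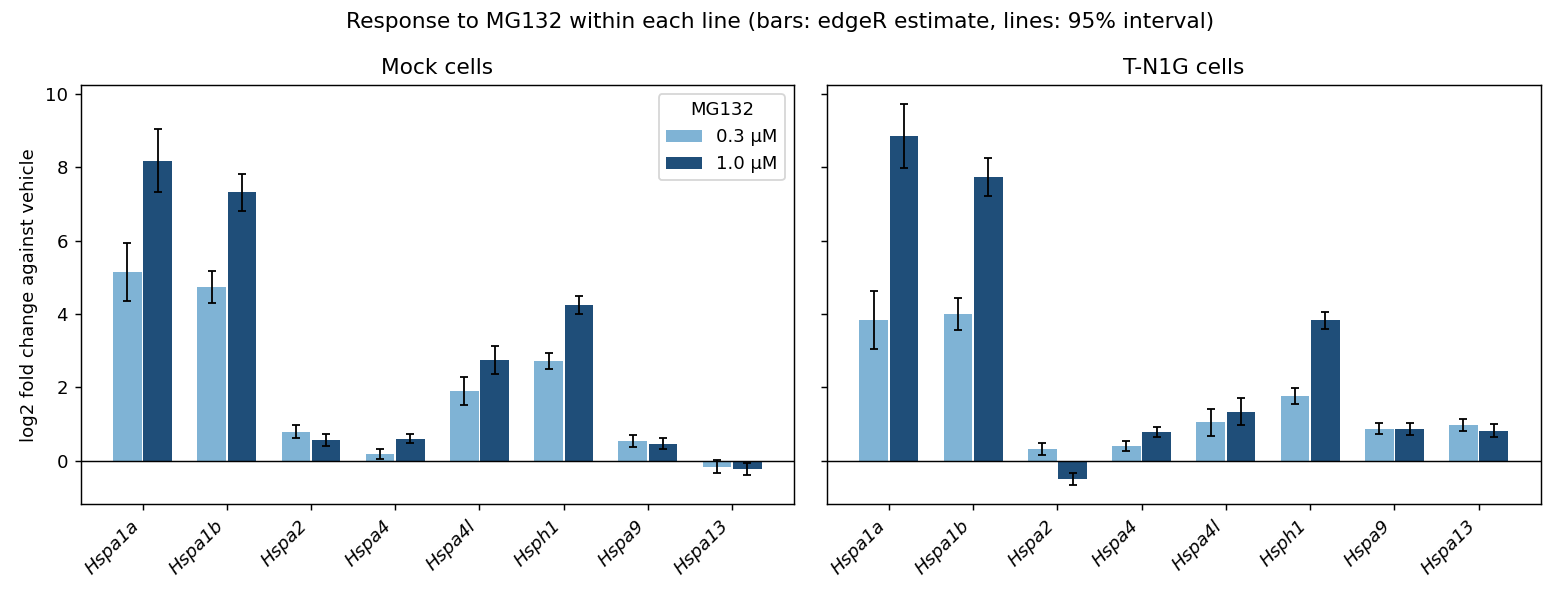
Log2 fold change of each gene against vehicle at 0.3 µM and 1.0 µM MG132, in mock (left) and T-N1G (right) cells, as edgeR estimates with 95% intervals. Hspa1a reaches 8.18 and 8.85 at 1.0 µM, and Hspa2 and Hspa13 are the 2 genes whose direction at 1.0 µM differs between the panels.

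The stress-inducible cytosolic HSP70 genes rose furthest. Hspa1a (mm9 chromosome 17, 35106304 to 35109101) stood at 2.81, 2.64 and 2.87 CPM in the 3 mock libraries under vehicle, from 57 to 63 fragments each. It reached 122, 73.2 and 100.3 CPM at 0.3 µM and 1046, 756 and 619 CPM at 1.0 µM. These groups did not overlap, and the log2 changes were 5.15 ± 0.37 (SE; adjusted p = 5.14e-08) and 8.18 ± 0.39 (adjusted p = 3.81e-10), or 35.4-fold and 290-fold. In T-N1G cells Hspa1a stood at 2.09, 2.53 and 2.39 CPM under vehicle, 36.7, 39.1 and 25.2 at 0.3 µM, and 1628, 818 and 795 at 1.0 µM. The first library at 1.0 µM was about as far above the other 2 as their own level. The log2 changes were 3.84 ± 0.37 (adjusted p = 5.86e-07) and 8.85 ± 0.41 (adjusted p = 7.03e-11).

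Hspa1b (mm9 chromosome 17, 35093374 to 35096183), the second inducible copy, had the higher FPKM (fragments scaled to transcript length and depth) of the pair in every group. Its mock libraries stood at 23.5, 24.5 and 22.0 CPM under vehicle, 705, 519 and 646 at 0.3 µM, and 3822, 4577 and 2763 at 1.0 µM. No group overlapped another, and the log2 changes were 4.74 ± 0.21 (adjusted p = 3.86e-11) and 7.32 ± 0.24 (adjusted p = 2.56e-13). In T-N1G cells the levels were 16.2, 15.9 and 17.2 CPM under vehicle, 281, 292 and 219.6 at 0.3 µM, and 4447, 3350 and 2724 at 1.0 µM. The log2 changes were 4.01 ± 0.21 (adjusted p = 7.81e-11) and 7.74 ± 0.24 (adjusted p = 6.20e-14).

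The 2 copies share 99.4% of their aligned open reading frames in the GENCODE annotation of GRCm38 and 48.1% of their 3′ untranslated parts, so reads from most of the transcript could be assigned to either. Hspa1a held 10.6 ± 0.91% of the pair's fragments in mock cells under vehicle, 13.5 ± 1.2% at 0.3 µM and 18 ± 3.7% at 1.0 µM. In T-N1G cells it held 12.5 ± 1.2%, 11.2 ± 0.81% and 23.0 ± 3.6% (SD, n = 3). How the counting divided shared reads is not stated. Added as 1 gene, the pair kept every call that Hspa1b had and gained 1, the difference between lines in the response at 0.3 µM.

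Hspa2 (mm9 chromosome 12, 77505163 to 77507923), an HSP70 known chiefly from spermatogenesis, was at a low level and rose only modestly. In mock cells it went from 19.2, 19.5 and 19.3 CPM under vehicle to 33.4, 34.0 and 33.6 at 0.3 µM and 28.6, 29.9 and 27.7 at 1.0 µM. The rises were 0.80 ± 0.08 (adjusted p = 2.37e-07) and 0.57 ± 0.08 (adjusted p = 5.20e-06) on the log2 scale. In T-N1G cells it went from 18.7, 20.8 and 21.2 CPM to 23.3, 25.5 and 27.1 at 0.3 µM and 14.7, 15.3 and 13.2 at 1.0 µM. Here Hspa2 rose by 0.32 ± 0.08 (adjusted p = 0.00196) and then fell below its vehicle level, with a log2 change of -0.49 ± 0.08 (adjusted p = 3.24e-05) and no overlap of the groups.

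Among the HSP110 genes, whose products act as nucleotide exchange factors of HSP70, Hsph1 rose furthest. Hsph1 (mm9 chromosome 5, 150419420 to 150438890) stood at 337, 289 and 324 CPM in mock cells under vehicle, 2242, 1799 and 2181 at 0.3 µM and 5582, 6635 and 5752 at 1.0 µM. The log2 changes were 2.71 ± 0.11 (adjusted p = 1.81e-12) and 4.24 ± 0.11 (adjusted p = 7.54e-15), or 6.55-fold and 18.9-fold. In T-N1G cells it stood at 369, 403 and 385 CPM, then 1286, 1444 and 1224, then 5414, 5621 and 5480. The 0.3 µM libraries lay below all 3 mock libraries of that dose, and at 1.0 µM the lines overlapped. The log2 changes were 1.77 ± 0.10 (adjusted p = 1.35e-10) and 3.83 ± 0.11 (adjusted p = 1.20e-14).

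Hspa4l (mm9 chromosome 3, 40549535 to 40594287), a second HSP110 gene, rose in both lines and further in mock cells. Its mock libraries stood at 26.8, 24.1 and 31.5 CPM under vehicle, 106, 89.2 and 113 at 0.3 µM and 153, 217 and 184 at 1.0 µM. Its T-N1G libraries stood at 21, 26.2 and 25.7, then 49.4, 52.0 and 49.5, then 42.7, 75.0 and 66.9 CPM. The lines overlapped under vehicle and separated at both doses. In mock cells the log2 changes were 1.90 ± 0.18 (adjusted p = 2.10e-07) and 2.75 ± 0.18 (adjusted p = 1.26e-09), and in T-N1G cells 1.05 ± 0.18 (adjusted p = 7.80e-05) and 1.34 ± 0.18 (adjusted p = 2.98e-06).

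Hspa4 (mm9 chromosome 11, 53073316 to 53113981), the HSP110 gene with the highest FPKM under vehicle in mock cells, changed least of the HSP110 genes. It went from 508, 504 and 482 CPM to 570, 547 and 585 at 0.3 µM and 727, 763 and 786 at 1.0 µM in mock cells. The rise at 0.3 µM was 0.19 ± 0.06 on the log2 scale (adjusted p = 0.0151), and it missed the threshold with library size alone (adjusted p = 0.0731) and without the third mock library at 0.3 µM (0.16, adjusted p = 0.0696; range over 28 alternatives 4.46e-09 to 0.0731). At 1.0 µM the rise was 0.61 ± 0.06 (adjusted p = 9.71e-08). In T-N1G cells Hspa4 went from 389, 401 and 385 CPM to 510, 532 and 510 and then 696, 654 and 684, with rises of 0.40 ± 0.06 (adjusted p = 1.91e-05) and 0.79 ± 0.06 (adjusted p = 1.64e-09).

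Hspa9 codes for the mitochondrial HSP70, mortalin, which pulls precursors through the inner membrane and takes part in iron-sulfur cluster assembly. It lies on mm9 chromosome 18, 35097069 to 35114005. In mock cells it rose from 748, 801 and 739 CPM to 1118, 1064 and 1153 at 0.3 µM and 981, 1148 and 1044 at 1.0 µM. In T-N1G cells it rose from 582, 617 and 564 CPM to 1064, 1117 and 1060, then 1105, 1069 and 1038. The lines were apart under vehicle and overlapped at both doses. The log2 changes were 0.54 ± 0.07 (adjusted p = 6.79e-06) and 0.47 ± 0.07 (adjusted p = 1.61e-05) in mock cells, and 0.88 ± 0.07 (adjusted p = 1.29e-08) and 0.87 ± 0.07 (adjusted p = 5.21e-09) in T-N1G cells.

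Hspa13 (mm9 chromosome 16, 75755436 to 75767063), also called STCH, is a microsome-associated HSP70 that has the ATPase part but lacks the usual substrate-binding part. Its mock libraries stood at 82.7, 79.2 and 79.9 CPM under vehicle, 71.5, 70.7 and 74.2 at 0.3 µM and 77.3, 63.2 and 67.0 at 1.0 µM. Its T-N1G libraries stood at 101, 106 and 104, then 209, 214 and 191, then 207, 172 and 172 CPM, above every mock library. In T-N1G cells Hspa13 rose by 0.98 ± 0.08 (adjusted p = 1.26e-08) and 0.82 ± 0.08 (adjusted p = 4.20e-08) on the log2 scale. In mock cells the changes were -0.16 ± 0.08 at 0.3 µM (adjusted p = 0.112) and -0.22 ± 0.08 at 1.0 µM (adjusted p = 0.0240). In a fit of only the 2 groups, the change at 0.3 µM passed (-0.14, adjusted p = 0.00614) and that at 1.0 µM did not (-0.16, adjusted p = 0.146). The same held with the library number as a block in such a fit (-0.14, adjusted p = 0.00130, and -0.17, adjusted p = 0.126). The value at 1.0 µM did not hold in 18 of 28 alternatives, with log2 values over all 28 from -0.32 to -0.09 and adjusted p from 0.000411 to 0.327. Those 18 included leaving out any 1 vehicle library of either line, the second or the third mock library at 1.0 µM, the third T-N1G library at 0.3 µM, or the first or the third T-N1G library at 1.0 µM.

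Per unit of transcript length, the makeup of the 8 genes, which leave out Hspa8, changed with dose. Under vehicle the order by FPKM in mock cells was Hspa9 (255 ± 11, SD, n = 3), Hspa4 (106 ± 2.6), Hsph1 (91.6 ± 7.2), Hspa13 (19.7 ± 0.39), Hspa1b (8.5 ± 0.44), Hspa2 (7.76 ± 0.080), Hspa4l (7.76 ± 1.1) and Hspa1a (1.01 ± 0.046). The libraries of Hspa4l overlapped those of Hspa1b and of Hspa2, and no other neighbours overlapped. At 1.0 µM the order in mock cells was Hsph1 (1823 ± 159), Hspa1b (1422 ± 341), Hspa9 (371 ± 27.2), Hspa1a (310 ± 84.8), Hspa4 (170 ± 6.5), Hspa4l (55.0 ± 9.1), Hspa13 (17.8 ± 2.0) and Hspa2 (12.1 ± 0.38). There the first 2 overlapped, as did Hspa9 and Hspa1a. In T-N1G cells Hspa9 was also first under vehicle (196.7 ± 8.7) and Hsph1 first at 1.0 µM (1645 ± 35.8).

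The summed FPKM of the 8 genes rose from 497 ± 5.8 under vehicle to 1437 ± 137 at 0.3 µM and 4182 ± 504 at 1.0 µM in mock cells, and from 439.9 ± 15 to 1043 ± 65.9 and 3957 ± 496 in T-N1G cells. As a share of all fragments this was 0.181%, 0.470% and 1.24% in mock and 0.159%, 0.346% and 1.14% in T-N1G cells. These sums leave out Hspa8, which alone stood at 2261 ± 68.5 FPKM (SD, n = 3) in mock cells under vehicle. The shares that follow are therefore of the 8 genes only. Hspa9 held 51.2 ± 1.8% of the summed FPKM in mock cells under vehicle and 8.94% at 1.0 µM. Hspa1b went the other way, from 1.71 ± 0.068% to 33.7%, and Hsph1 from 18.4 ± 1.6% to 43.8%. In T-N1G cells the same 3 genes went from 44.7% to 9.40%, from 1.36% to 32.9% and from 25.5% to 42.0%.

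**Figure D3:**
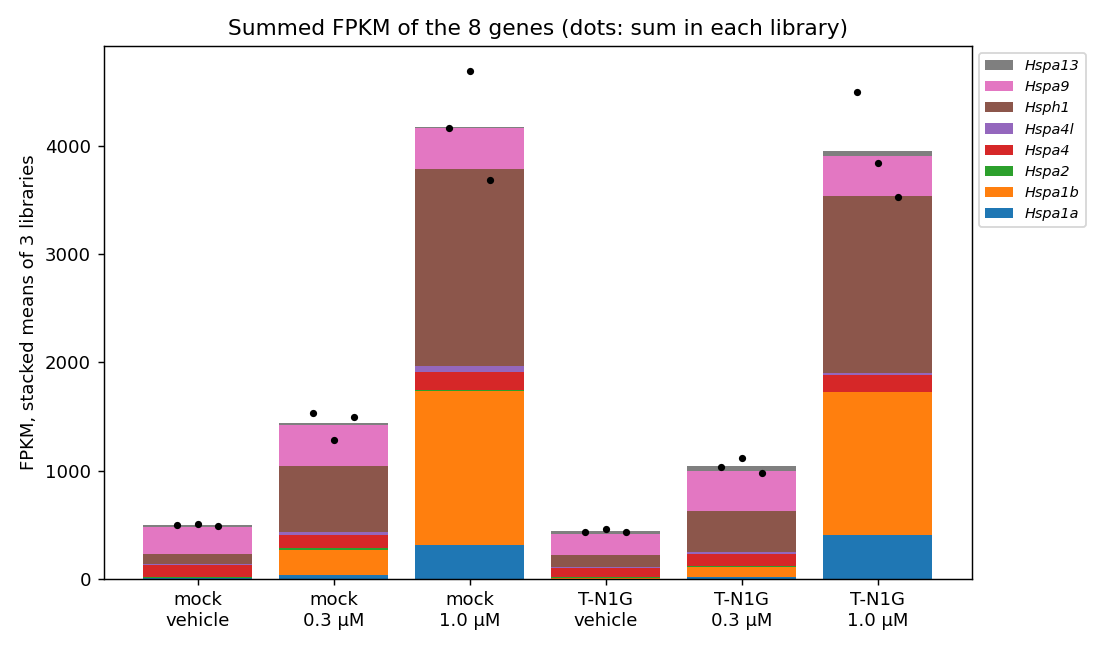
Mean FPKM of the 8 genes stacked by group, with dots for the sum in each of the 3 libraries. Under vehicle Hspa9 makes up 51.2% of the stack in mock cells, and at 1.0 µM Hsph1 and Hspa1b make up most of it in both lines. Hspa8 is not in the stack.

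Over the step from 0.3 to 1.0 µM, Hspa1a, Hspa1b, Hsph1 and Hspa4 rose further in both lines. In mock cells 5 of the 8 rose further and 1, Hspa2, was called lower, against 21.8% and 27.8% of all tested genes. The further rises were 3.03 ± 0.29 for Hspa1a, 2.58 ± 0.19 for Hspa1b, 1.53 ± 0.10 for Hsph1, 0.85 ± 0.17 for Hspa4l and 0.42 ± 0.06 for Hspa4 on the log2 scale (largest adjusted p = 0.000593). Hspa9 (-0.07 ± 0.07, adjusted p = 0.429) and Hspa13 (-0.06 ± 0.08, adjusted p = 0.563) did not pass the test. The Hspa2 step of -0.23 ± 0.08 (adjusted p = 0.0232) was lost in 19 of 27 alternatives. There adjusted p ran from 0.0503 to 0.0996, and over all 27 from 0.0143. Those included leaving out any 1 library of either vehicle group or of mock cells at 1.0 µM, the second or the third mock library at 0.3 µM, the third T-N1G library at 0.3 µM or the first at 1.0 µM. With DESeq2 size factors the split was 5 and 0.

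In T-N1G cells 4 of the 8 rose over the same step and Hspa2 fell, against 29.3% and 30.8% of all tested genes. Hspa1a rose by 5.01 ± 0.32, Hspa1b by 3.73 ± 0.20, Hsph1 by 2.06 ± 0.10 and Hspa4 by 0.39 ± 0.06 (largest adjusted p = 3.94e-05), and Hspa2 fell by 0.81 (SE 0.08, adjusted p = 4.85e-07). Hspa4l changed by 0.29 ± 0.17 (adjusted p = 0.153), and by 0.49 without the first library at 1.0 µM, where it passed (adjusted p = 0.00728; range over 27 alternatives 0.00728 to 0.579). The values for Hspa9 (-0.01 ± 0.07) and Hspa13 (-0.15 ± 0.08) did not pass. Scaled by library size alone, Hspa13 was called lower too, giving 4 and 2, and it was also called without the first mock library at 1.0 µM (-0.17), the third T-N1G library at 0.3 µM (-0.21) or the first at 1.0 µM (-0.25). The Hspa9 value took the opposite sign with DESeq2 size factors (0.03).

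T-N1G and mock cells were then compared at each treatment. An effect of the tethered heterodimer cannot be told apart here from any other difference between the 2 lines. Under vehicle Hspa13 was higher in T-N1G cells and Hspa4 and Hspa9 were lower, 1 and 2 of the 8 genes against 8.43% and 7.72% of all tested genes. Hspa13 differed by 0.36 ± 0.08 on the log2 scale (adjusted p = 0.00478), Hspa4 by -0.35 ± 0.06 (adjusted p = 0.000689) and Hspa9 by -0.38 ± 0.07 (adjusted p = 0.00157), and their libraries did not overlap between the lines. Nor did those of Hspa1a, Hspa1b and Hsph1, which were not called. How many of all tested genes separate like this under vehicle was not counted. Hspa1a was at -0.25 ± 0.46 (adjusted p = 0.775). Hsph1 was at 0.29 ± 0.10 (adjusted p = 0.0585). It passed with the library number as a block (0.29, adjusted p = 0.0496) and with DESeq2 (adjusted p = 0.0185; range over 28 alternatives 0.00190 to 0.245), which made 2 genes higher. In a fit of only these 2 groups it passed without the block (0.28, adjusted p = 0.00190) and with it (0.29, adjusted p = 0.0164). Hsph1 also passed without the second mock library at 0.3 µM (adjusted p = 0.0463), the second at 1.0 µM (0.0406) or the third T-N1G library at 1.0 µM (0.0402). Hspa1b was at -0.51 ± 0.20 (adjusted p = 0.0926) with no overlap between the lines and a 95% interval of -0.92 to -0.09. It passed with DESeq2 (adjusted p = 0.0470). In a fit of only these 2 groups it passed without the block (-0.51, adjusted p = 0.000111) and with it (-0.51, adjusted p = 3.86e-06). The range over 28 alternatives was 3.86e-06 to 0.215.

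At 0.3 µM, 5 of the 8 genes were lower in T-N1G than in mock cells and Hspa13 was higher, against 23.5% and 25.0% of all tested genes. The lower genes were the inducible pair, Hspa1a (-1.55 ± 0.29, adjusted p = 0.000459) and Hspa1b (-1.24 ± 0.18, adjusted p = 2.69e-05), with Hspa4l (-1.03 ± 0.17, adjusted p = 0.000110), Hsph1 (-0.65 ± 0.10, adjusted p = 3.11e-05) and Hspa2 (-0.41 ± 0.08, adjusted p = 0.000327). Every mock library of these 5 genes lay above every T-N1G library, and the same held for Hspa4, which was not called. The share of all tested genes that separate in this way was not counted. Hspa13 was higher by 1.5 ± 0.08 (adjusted p = 1.02e-10), or 2.84-fold. Hspa4 (-0.13 ± 0.06, adjusted p = 0.0808) and Hspa9 (-0.04 ± 0.07, adjusted p = 0.668) did not pass, with 95% intervals of -0.26 to -0.0044 and -0.19 to 0.11. Hspa4 passed by library size alone (-0.15, adjusted p = 0.0423) and with DESeq2 (-0.15, adjusted p = 0.00482).

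At 1.0 µM, in the fit of all groups without pairing, no difference was called for the inducible pair or Hsph1, while Hspa4l and Hspa2 were lower and Hspa13 higher in T-N1G cells. With Hspa4 this made 3 lower and 1 higher, against 31.3% and 30.7% of all tested genes. Hspa4l differed by -1.59 ± 0.17 (adjusted p = 5.48e-07), Hspa2 by -1.0 ± 0.08 (adjusted p = 8.73e-09) and Hspa13 by 1.41 ± 0.08 (adjusted p = 9.54e-11). Hspa4 differed by -0.16 ± 0.06 (adjusted p = 0.0287), a call lost without the third mock library (-0.14, adjusted p = 0.0838) or the second T-N1G library of that dose (-0.14, adjusted p = 0.0789), and when these 2 groups were fitted alone without a block (adjusted p = 0.249). The 95% intervals were -0.16 to 1.00 for Hspa1a, -0.46 to 0.29 for Hspa1b, -0.33 to 0.09 for Hsph1 and -0.14 to 0.17 for Hspa9. The sign for Hspa9 turned with either other scaling. Same-numbered libraries of these 2 groups deviated together (correlations 0.645 to 0.811), and Hspa1a was higher in T-N1G cells in 3 of 3 such pairs and Hsph1 lower in 3 of 3. With the library number as a block in a fit of only these 2 groups, Hspa1a passed (0.36, adjusted p = 0.00655), which made 2 genes higher, and Hsph1 did not (-0.13, adjusted p = 0.156). With the block in the fit of all 6 groups Hspa1a did not pass (0.39, adjusted p = 0.0890), and without the first T-N1G library and no block its value was -0.040.

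Whether the response to MG132 itself differed between the lines was tested as an interaction. It compares signed log2 changes, so a higher one can also be a weaker fall. At 0.3 µM, 3 of the 8 genes had a lower log2 change in T-N1G cells, against 11.0% of all tested genes, and 2 a higher one, against 14.2%. The lower changes were those of Hsph1 (difference -0.94 ± 0.14, adjusted p = 8.62e-05), Hspa4l (-0.85 ± 0.25, adjusted p = 0.0182) and Hspa2 (-0.47 ± 0.11, adjusted p = 0.00484). The higher ones were those of Hspa13 (1.14 ± 0.12, adjusted p = 1.44e-06) and Hspa9 (0.33 ± 0.10, adjusted p = 0.0236). Hspa1a (-1.30 ± 0.54, adjusted p = 0.0955) and Hspa1b (-0.73 ± 0.27, adjusted p = 0.0544) missed the threshold, with 95% intervals of -2.46 to -0.14 and -1.29 to -0.17. Hspa1b alone passed with either other scaling, and both passed with DESeq2, with limma on either FPKM scale and with the block, where 5 genes were lower.

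Single libraries decided some of these calls at 0.3 µM. Libraries at 1.0 µM are outside this contrast and enter it only through the scaling, filter and spread shared by the fit. The Hspa4l difference missed the threshold without the second mock vehicle library (-0.77, adjusted p = 0.0532; range over 27 alternatives 0.000547 to 0.0532). That of Hspa9 missed it without the second mock vehicle library, the second mock or T-N1G library at 0.3 µM, or the first or the third T-N1G vehicle library (0.29 to 0.32, adjusted p 0.0562 to 0.0726). Hspa1a passed without the first T-N1G library at 1.0 µM (-1.30, adjusted p = 0.0279). Hspa1b passed when added to Hspa1a (-0.80, adjusted p = 0.0441), and without the second mock library at 0.3 µM (-0.84), the second or the third mock library at 1.0 µM (-0.73 each) or the first or the third T-N1G library at 1.0 µM (-0.73 each), with adjusted p over its 27 alternatives from 0.0196 to 0.124.

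At 1.0 µM the same 5 genes were called, with 22.1% and 22.9% of all tested genes called for a lower and a higher change. The differences were -1.41 ± 0.25 for Hspa4l (adjusted p = 0.000202), -1.06 ± 0.12 for Hspa2 (adjusted p = 8.95e-07), -0.41 ± 0.14 for Hsph1 (adjusted p = 0.0245), 1.05 ± 0.12 for Hspa13 (adjusted p = 1.14e-06) and 0.39 ± 0.10 for Hspa9 (adjusted p = 0.00467). No single library changed these 5 calls. Hspa9 differed between the lines by -0.38 under vehicle, and by -0.04 and 0.02, neither called, at 0.3 and 1.0 µM. For Hsph1 these differences were 0.29 (not called), -0.65 and -0.12 (not called). Hspa1a (0.67 ± 0.53, adjusted p = 0.331), Hspa1b (0.42 ± 0.27, adjusted p = 0.211) and Hspa4 (0.19 ± 0.09, adjusted p = 0.0919) did not pass.

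**Figure D4:**
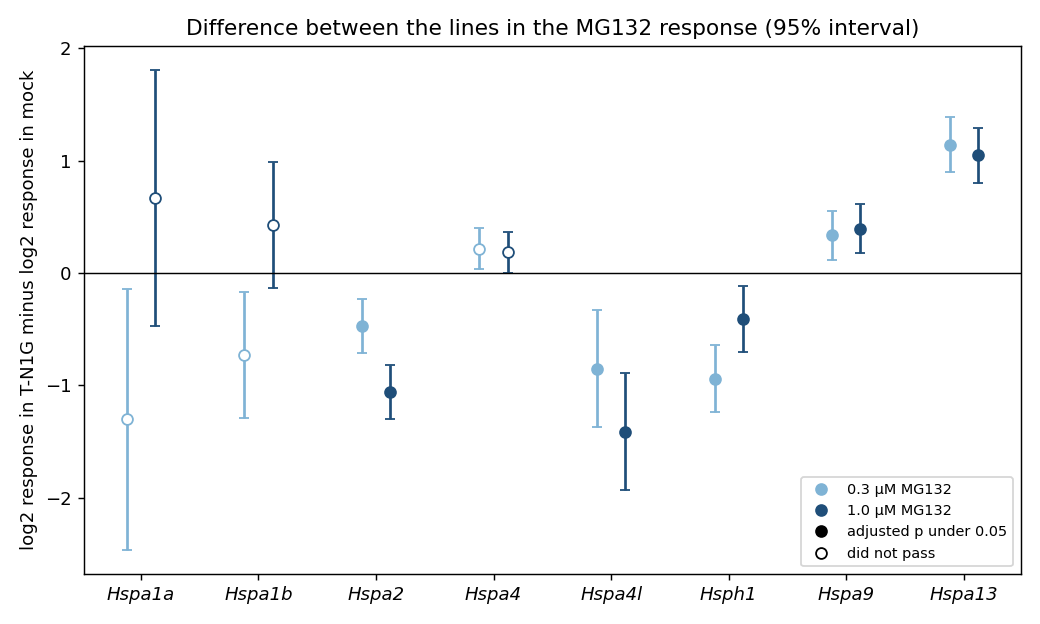
Log2 response in T-N1G minus log2 response in mock cells at 0.3 µM (light) and 1.0 µM (dark), with 95% intervals and filled points where the adjusted p was under 0.05. Hspa13 and Hspa9 lie above 0 and Hspa2, Hspa4l and Hsph1 below it at both doses, while Hspa1a and Hspa1b change side between the doses without passing at either.

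The side change of the inducible pair was put to a further contrast, chosen after the values were seen, of the step from 0.3 to 1.0 µM between the lines. The step was steeper in T-N1G cells for Hspa1a by 1.97 ± 0.39 (adjusted p = 0.00603), for Hspa1b by 1.15 ± 0.25 (adjusted p = 0.00754) and for Hsph1 by 0.53 ± 0.14 (adjusted p = 0.0191), and was lower for Hspa2 by -0.59 ± 0.11 (adjusted p = 0.00335). These were 3 genes with a steeper and 1 with a lower step, against 6.89% and 5.60% of all tested genes. The Hsph1 call was lost when the 4 groups were fitted alone (0.54, adjusted p = 0.0660) and without the first or the third mock library at 0.3 µM (0.47 and 0.49), the first mock library at 1.0 µM (0.43) or the third T-N1G library at 0.3 µM (0.43), with adjusted p up to 0.0820. Hspa4l, at -0.56 ± 0.24 (adjusted p = 0.136), passed without the second T-N1G library at 1.0 µM (-0.73, adjusted p = 0.0373). The T-N1G libraries at 1.0 µM were the most spread of all groups, and the part of that spread in these differences was not tested.

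The other HSP70 family genes moved in both directions. Of 7 listed, 6 were tested. At 1.0 µM, 2 rose and 2 fell in mock cells, near the 32.4% of all tested genes called higher and 37.4% called lower. In T-N1G cells 2 rose, near the 37.5% called higher over all tested genes, and 4 fell, where 38.9% were called lower. Mock cells had a median log2 change of -0.0017 over the 6 and T-N1G cells one of -0.35, beside the -0.04 and -0.01 of all tested genes. Hspa5, the endoplasmic reticulum HSP70 (BiP), rose from 1205 ± 168 to 1998 ± 538 CPM in mock cells (log2 change 0.73 ± 0.21, adjusted p = 0.00546) and from 1407 ± 79.7 to 4261 ± 1569 in T-N1G cells (1.60 ± 0.21, adjusted p = 3.31e-06). Hspa1l, a testis-type gene beside the inducible pair, rose by 1.29 ± 0.22 in mock cells from 1.75 ± 0.28 CPM (adjusted p = 3.85e-05). Hspa12b (-1.39 ± 0.20, adjusted p = 5.18e-06) and Hspa12a (-0.62 ± 0.13, adjusted p = 0.000368), distant members of the family, fell. In the interaction at 1.0 µM, 1 of the 6 had a higher and 2 a lower log2 change in T-N1G cells. Over all tested genes these calls were 22.9% and 22.1%. The 2 differences largest in size were those of Hspa5 (0.87 ± 0.30, adjusted p = 0.0246) and Hspa12a (-0.58 ± 0.18, adjusted p = 0.0147). Under vehicle Hspa12a stood at 15.5 ± 0.61 CPM in mock and 26.8 ± 2.5 CPM in T-N1G cells. At 1.0 µM it stood at 10.1 ± 1.4 and 11.7 ± 1.7 CPM. Hspa8 could be read in 3 groups and was not tested: its FPKM was 2182 to 2305 in mock and 1994 to 2210 in T-N1G cells under vehicle, and 5872 to 6721 in T-N1G cells at 0.3 µM.

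Of the 12 other nucleotide exchange factors and adaptors of HSP70, 5 rose and 3 fell in mock cells at 1.0 µM (all tested genes 32.4% and 37.4%), and 7 rose and 3 fell in T-N1G cells (37.5% and 38.9%), so the mock counts lay near the share over all genes. Scaled by library size alone the mock split was 5 and 5. The 12 had a median log2 change of 0.07 in the mock line and 0.67 with T-N1G. At 0.3 µM, 7 rose and 2 fell in mock cells (all tested genes 25.0% and 28.1%), and 8 rose and 3 fell with T-N1G (29.1% and 30.3%). Bag3, which links HSP70 to autophagy, rose from 94.2 ± 5.6 to 487 ± 19.4 CPM in mock cells (log2 change 2.37 ± 0.09, adjusted p = 5.04e-13). Stip1 (1.45 ± 0.07, adjusted p = 2.41e-11), the bridge between HSP70 and HSP90, and St13 (1.07 ± 0.10, adjusted p = 3.22e-08), which slows nucleotide release, rose too, and Sil1, the exchange factor of BiP, fell (-0.96 ± 0.14, adjusted p = 1.15e-05). At 1.0 µM 6 of the 12 had a higher log2 change in T-N1G cells and 1 a lower one, or 4 and 2 by library size alone, where 22.9% and 22.1% of all tested genes were called. The 2 differences largest in size were those of Grpel2, a mitochondrial exchange factor (0.84 ± 0.12, adjusted p = 2.03e-05), and Hspbp1 (0.75 ± 0.13, adjusted p = 0.000174).

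The J-domain proteins, which recruit clients to HSP70, mostly rose: 14 of 20 in each line at 1.0 µM, with 5 lower in each, against 32.4% and 37.4% of all tested genes in mock and 37.5% and 38.9% in T-N1G cells. They had median log2 changes of 0.53 (mock) and 0.74 (T-N1G). At 0.3 µM, 15 rose and 4 fell in mock cells (all tested genes 25.0% and 28.1%), and 14 rose and 4 fell with T-N1G (29.1% and 30.3%). The cytosolic Dnaja4 (3.85 ± 0.16), Dnajb4 (3.44 ± 0.13), Dnajb1 (2.84 ± 0.17) and Dnaja1 (2.25 ± 0.08) rose furthest in mock cells (largest adjusted p = 2.20e-10). Dnajb1, the main partner of the inducible HSP70, went from 146.9 ± 3.4 to 1049 ± 265 CPM in mock cells and from 141 ± 4.5 to 1177 ± 290 in T-N1G cells. Of the 20, 5 had a higher and 6 a lower log2 change in T-N1G cells, near the 22.9% and 22.1% over all tested genes. The 2 differences largest in size were those of Dnajb14 (1.19 ± 0.16, adjusted p = 1.11e-05), a J-protein of the endoplasmic reticulum membrane, and Dnajc2 (1.09 ± 0.12, adjusted p = 7.55e-07), a ribosome-bound one. Dnajb14 fell in mock cells (-0.93 ± 0.12, adjusted p = 1.63e-06) and rose by less in T-N1G cells (0.27 ± 0.11, adjusted p = 0.0373). Dnaja4, Dnajb4 and Dnaja1 were among the 6, with differences of -0.88, -0.79 and -0.63, and Dnajb1 did not pass (0.22 ± 0.22, adjusted p = 0.444).

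Of 17 heat shock factors and other chaperone genes of the heat shock response, 14 rose and 2 fell in mock cells at 1.0 µM (all tested genes 32.4% and 37.4%), and 13 rose and 2 fell in T-N1G cells (37.5% and 38.9%), with median log2 changes of 1.57 and 1.69. At 0.3 µM, 14 of them rose in mock cells (25.0% of all tested genes) and 12 with T-N1G (29.1%). The small heat shock protein gene Hspb1 rose from 18.6 ± 1.7 to 2244 ± 423 CPM in mock cells (6.91 ± 0.24, adjusted p = 6.57e-13) and from 11.3 ± 0.54 to 1387 ± 242 in T-N1G cells (6.94 ± 0.24, adjusted p = 2.34e-13). Hsp90aa1, the inducible HSP90, rose by 2.79 ± 0.14 (adjusted p = 2.41e-11) and 2.96 ± 0.14 (adjusted p = 3.06e-12), and Chordc1, an HSP90 co-chaperone, by 2.00 ± 0.07 and 2.05 ± 0.07. Hspb8 rose by 4.51 ± 0.31 in mock cells, from 0.37 ± 0.26 CPM. At 1.0 µM, 2 of the 17 had a higher and 4 a lower log2 change in T-N1G cells, against 22.9% and 22.1% of all tested genes. Hsf2, a heat shock factor, had the higher change in T-N1G cells (1.49 ± 0.13, adjusted p = 6.41e-08), and Hspb8 the lower (-2.57 ± 0.41, adjusted p = 6.10e-05). Under vehicle Hspb8 was near the floor in mock cells (0.37 ± 0.26 CPM) and at 2.89 ± 0.25 CPM in T-N1G cells. At 1.0 µM its level was 8.52 ± 0.95 CPM in mock and 11.1 ± 2.4 CPM in T-N1G cells.

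Of 17 mitochondrial partners of Hspa9, 4 rose and 10 fell in mock cells at 1.0 µM (all tested genes 32.4% and 37.4%), and 7 rose and 8 fell in T-N1G cells, near the 37.5% and 38.9% over all tested genes, with median log2 changes of -0.37 and -0.06. At 0.3 µM, 6 rose and 6 fell in mock cells (25.0% and 28.1%), and 8 rose and 2 fell with T-N1G (29.1% and 30.3%). The HSP60 and HSP10 genes Hspd1 (1.57 ± 0.09, adjusted p = 1.28e-10) and Hspe1 (1.85 ± 0.11, adjusted p = 1.66e-10) rose in mock cells. Iscu (-1.14 ± 0.10, adjusted p = 1.15e-08), the scaffold of iron-sulfur clusters that Hspa9 serves, and Dnajc19 (-1.31 ± 0.14, adjusted p = 1.53e-07), a J-protein of the import motor, fell. The interaction at 1.0 µM called 6 of the 17, each with the higher log2 change in T-N1G cells, against 22.9% of all tested genes. The largest 2 differences were those of the mitochondrial protease genes Clpx (1.24 ± 0.10, adjusted p = 2.47e-08) and Clpp (1.12 ± 0.12, adjusted p = 5.97e-07), which stood at 34.1 ± 2.1 and 35.3 ± 3.2 CPM in mock and 78.7 ± 3.8 and 76.4 ± 7.5 CPM in T-N1G cells at 1.0 µM.

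For each of the 8 genes the 3 other genes with the most similar profile over the 18 libraries were taken by the root mean square difference of log2 CPM, after centring on mock vehicle. Hspa1b lay nearest to Hspb1 (0.592) and Atf3 (0.916), and no gene was nearer to Hspa1a than Hspa1b (0.669). Hspa4l lay nearest to Hmox1 (0.359), Pmaip1 (0.381) and Dnaja1 (0.392), and Hsph1 to Oasl1 (0.502), Ppp1r15a (0.510) and Cldn4 (0.521). Cldn4 had 0 fragments in all 6 vehicle libraries, so its place rests on the prior count of 2. For the remaining genes the distances were smaller: Hspa2 to Eif4ebp1 (0.164), Hspa4 to Bms1 (0.0781), Hspa9 to Thoc5 (0.0816) and Hspa13 to Psma3 (0.115), Vcp (0.171) and Qsox1 (0.174).

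The 3 genes nearest to Hspa13 had higher mean CPM with T-N1G than in the mock line at both doses. They were picked for a profile like that of Hspa13 over these same libraries, so this follows from the choice. Psma3, a subunit of the proteasome core, stood at 110.8 ± 2.3, 113 ± 1.4 and 89.1 ± 4.6 CPM in mock cells under vehicle, 0.3 µM and 1.0 µM, and at 138 ± 3.1, 267 ± 15.2 and 261 ± 42.4 CPM in T-N1G cells. Vcp, which codes for the p97 unfoldase that feeds the proteasome, stood at 983 ± 23.7, 1054 ± 30.2 and 817 ± 76.8 CPM in mock cells and at 1105 ± 26.4, 2243 ± 78.9 and 2301 ± 341 CPM in T-N1G cells. Qsox1, a sulfhydryl oxidase of the secretory pathway, stood at 138.9 ± 3.7, 144.7 ± 4.4 and 126 ± 13.7 CPM in mock cells and at 173 ± 13.4, 288 ± 11.7 and 297 ± 46.2 CPM in T-N1G cells. Hmox1, the nearest gene of Hspa4l, stood at 1130 ± 54.0, 3334 ± 123 and 6643 ± 1444 CPM in mock cells and at 918 ± 16.5, 1709 ± 110 and 2433 ± 781 CPM in T-N1G cells.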

How the data were processed

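Polyadenylated RNA was measured in 18 libraries. Reads were aligned with TopHat2 2.0.8b after bcl2fastq 2.16.0.10, and Cuffdiff 2.1.1 quantified genes, all on build mm9, per the submitters' processing notes. The annotation, strand setting and handling of reads shared by copies are not stated. Per the file headers, the authors deposited for each gene and library an estimated count, unscaled, and an FPKM after Cuffdiff's scaling. Of the estimated counts, 98.2% to 98.5% per library were whole within 1e-06, and all were rounded. The 2 genes left unprocessed by Cuffdiff in some libraries were dropped. Library numbers follow Cuffdiff's own order, and its condition names were read as line and dose, neither of which the files state. Libraries of 1 group differed by more than sampling noise. Intervals cover counting error and the spread between libraries only.

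The test was the quasi-likelihood F test of edgeR 4.0.16 in R 4.3.3, with TMM scaling, filterByExpr and 1 fit of 6 group means. There were 11 contrasts, and 1 added after the values were seen. Every adjusted p is Benjamini-Hochberg over the 13258 genes tested, and calls are at 0.05. SE is the log2 change over the square root of F. Alternatives were other scalings, no filter, a library-number block, fewer groups, the summed pair, DESeq2 1.42.0, limma 3.58.1 on log2(FPKM + 1) and log2(FPKM + 0.1), and each library left out. A library of a group outside a contrast acts on it only through the scaling, filter and spread shared by the fit. Same-numbered libraries deviated together, with every correlation above 0.1, in 5 comparisons of 2 groups: the lines under vehicle (0.241 to 0.321) and at 1.0 µM (0.645 to 0.811), vehicle against 0.3 µM (0.234 to 0.294) and 1.0 µM (0.165 to 0.243) in mock cells, and vehicle against 0.3 µM in T-N1G cells (0.489 to 0.608). For these a fit of only the 2 groups with the block was added after the values were seen, and its value stands where it changes a call. The scripts were tested on simulated data. The 8 genes and the gene lists were chosen with earlier results of these data known. Genes named from a list were its 4 called genes of largest change at 1.0 µM in mock cells and the 2 of largest interaction at 1.0 µM.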

Additional observations from a re-analysis of the deposited data

Results flagged for a closer look

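Several genes responded to MG132 differently in the 2 lines by an interaction test (edgeR, signed log2 change in T-N1G minus that in mock cells). Over all tested genes 11.0% were called for a lower and 14.2% for a higher change at 0.3 µM. At 1.0 µM these shares were 22.1% and 22.9%. At 0.3 µM the differences were -0.47 for Hspa2, -0.85 for Hspa4l, -0.94 for Hsph1, 0.33 for Hspa9 and 1.14 for Hspa13. At 1.0 µM they were -1.06 for Hspa2, -1.41 for Hspa4l, -0.41 for Hsph1, 0.39 for Hspa9 and 1.05 for Hspa13. The contrast of the step from 0.3 to 1.0 µM was chosen after these differences were seen on the same libraries, so its values restate that pattern and are no independent evidence of it. They were 1.97 for Hspa1a, 1.15 for Hspa1b, -0.59 for Hspa2 and 0.53 for Hsph1. Over the step 6.89% of all tested genes were called higher and 5.60% lower. The call for Hsph1 over the step was lost in 5 of 27 alternatives. At 0.3 µM the call for Hspa9 was lost in 5 of 27 and that for Hspa4l in 1 of 27.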

How the results depend on the processing

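Of 658 checks of a count of called genes among the 8, 595 stayed within 1.5 times the reported count. The count higher under vehicle between the lines became 2 with the replicate block, with only the groups compared, with both together and with DESeq2, and that at 1.0 µM became 2 with the replicate block in only the groups compared. The count lower at 0.3 µM in mock cells became 1 by library size alone and with only the groups compared, with or without the block. The counts lower at 1.0 µM and over the step in mock cells both became 0 with DESeq2 size factors, no filter, only the groups compared, DESeq2 and limma on either FPKM scale, and that at 1.0 µM also with the block in only the groups compared. The count lower over the step in T-N1G cells became 2 by library size alone. The count of smaller responses in T-N1G cells at 0.3 µM became 5 with the block, DESeq2 and limma on either scale. The cause was not tested.

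With each library left out in turn, the count higher under vehicle between the lines ran from 1 to 2, that lower between the lines at 1.0 µM from 2 to 3, and that higher at 0.3 µM in mock cells from 6 to 7. The counts lower at 1.0 µM and over the step in mock cells ran from 0 to 1. Over the step in T-N1G cells the counts ran from 4 to 5 higher and 1 to 2 lower. For the interaction they ran from 1 to 2 larger and 2 to 5 smaller at 0.3 µM, and from 2 to 3 larger and 1 to 2 smaller over the step.

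Of 2620 checks of single genes, 31 changed sign, none of them a called value. Between the lines at 1.0 µM, Hspa1b was 0.019 when added to Hspa1a, and Hspa9 was -0.0095 with DESeq2 size factors, -0.045 by library size alone, -0.047 without the filter, -0.013 with DESeq2, and -0.0071 with limma on either scale. Over the step in T-N1G cells Hspa9 was 0.030 with DESeq2 size factors, 0.021 with DESeq2 and, with limma, 0.022 (FPKM + 1) and 0.023 (FPKM + 0.1), and its interaction over the step was -0.00015 without the filter. With libraries left out, the values between the lines at 1.0 µM ran from -0.040 to 0.60 for Hspa1a, -0.33 to 0.035 for Hspa1b and -0.084 to 0.025 for Hspa9. Over the step they ran from -0.11 to 0.016 (mock) and -0.039 to 0.0026 (T-N1G) for Hspa9 and from -0.11 to 0.042 for Hspa13 in mock cells, and for the interaction over the step from -0.044 to 0.084 for Hspa9.

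Over all 15 pairs of groups, same-numbered libraries correlated from -0.108 to 0.811, so the numbers do not pair the whole design. With the replicate block over all groups Hspa1a was at -1.30 and Hspa1b at -0.75 in the interaction at 0.3 µM, both called, and no other count of called genes moved by over 1.5 times under it except that under vehicle. At 45 to 63 fragments per vehicle library, Hspa1a limits how finely its fold changes can be read.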
